A study of Mus musculus with 12 samples.

Results

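The transcripts of 9 genes of glycogen synthesis and breakdown were followed in 12 mouse liver RNA libraries. The genes were chosen by name as glycogen enzymes and glycogen-targeting phosphatase subunits. The rule uses no value, but the choice was made with earlier results of these data known. The genes are 9 of the 56441 gene rows of the count table, which writes them in capitals (GYS2, GBE1, UGP2, PGM1, PYGL, PHKA2, PPP1R3B, PPP1R3C and PPP1R3G). All 9 passed the filter on low counts that left 15228 genes for testing. The libraries form 4 groups of 3. The ob/ob FH and ob/ob vector groups came from ob/ob mice, which lack functional leptin and become obese, kept on a high-fat diet (HFD). The fasted FH and fasted vector groups came from C57BL/6 mice fasted for 24 h. Mice of 6 to 8 weeks of age were injected in the tail vein with AAV8-FH, an adeno-associated virus that carries fumarate hydratase, or with AAV8-vector, and livers were taken 1 month later. All 4 groups had therefore received a virus, and neither model had a fed, lean group among the libraries. The virus was described as liver-specific, and no source used here names the promoter that drives FH. The study asked how FH, the enzyme that turns fumarate into malate, bears on fatty liver.

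Liver glycogen is the glucose store that keeps blood glucose up between meals. Phosphoglucomutase (Pgm1) turns glucose 6-phosphate into glucose 1-phosphate, UDP-glucose pyrophosphorylase (Ugp2) activates it, the liver glycogen synthase (Gys2) adds it to the chain, and the branching enzyme (Gbe1) makes the branch points. Glycogen phosphorylase of the liver (Pygl) takes glucose units off again and is switched on by phosphorylase kinase, whose liver regulatory alpha subunit is Phka2. Insulin favours storage in part through protein phosphatase 1, which glycogen-targeting subunits (Ppp1r3b, Ppp1r3c and Ppp1r3g among them) bring to the particle, while glucagon favours breakdown through cyclic AMP. Synthase and phosphorylase are also set by phosphorylation and by glucose 6-phosphate, which RNA does not measure.

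Promoter sequences were taken from RefSeq (GRCm38.p6) as the 250 bases before each transcription start, and 7 of the 9 genes had an entry, with 8 windows in all. They were searched on both strands for the E-box CACGTG, read by the clock factors among others, for the cyclic AMP response element TGACGTCA and its shorter form TGACG, which the full element contains, and for the forkhead letters TGTTTAC. The 3 windows below are shown because they held a match, which is in capitals. Ppp1r3c and Ppp1r3g had the widest relative spread among the ob/ob vector libraries. Pygl was called in all 4 pairwise comparisons, and so was Gbe1, whose window held no match. Each window shown is written 5′ to 3′ on the strand of its gene, so that the last base lies next to the start.

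Ppp1r3c, chr19:36736605-36736854, minus strand: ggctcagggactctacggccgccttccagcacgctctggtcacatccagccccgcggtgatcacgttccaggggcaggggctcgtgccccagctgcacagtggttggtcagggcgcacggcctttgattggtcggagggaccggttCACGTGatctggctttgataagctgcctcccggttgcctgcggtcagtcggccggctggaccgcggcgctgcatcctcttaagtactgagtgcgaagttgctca

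Ppp1r3g, chr13:35967656-35967905, plus strand: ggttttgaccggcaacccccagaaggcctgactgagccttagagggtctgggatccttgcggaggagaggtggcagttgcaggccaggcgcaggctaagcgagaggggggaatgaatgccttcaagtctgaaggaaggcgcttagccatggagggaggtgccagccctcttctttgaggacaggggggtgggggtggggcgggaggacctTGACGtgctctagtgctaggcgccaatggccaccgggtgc

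Pygl, chr12:70227684-70227933, minus strand: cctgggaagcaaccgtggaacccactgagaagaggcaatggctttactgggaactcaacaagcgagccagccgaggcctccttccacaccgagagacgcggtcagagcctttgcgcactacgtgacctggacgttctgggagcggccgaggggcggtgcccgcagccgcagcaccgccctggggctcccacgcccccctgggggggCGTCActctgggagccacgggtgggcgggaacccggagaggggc

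The E-box of Ppp1r3c began 104 bases before the start, and 6.02% of 32851 promoter windows of the same length held CACGTG. The shorter cyclic AMP form began 40 bases before the start of Ppp1r3g and, on the opposite strand (CGTCA), 44 bases before that of Pygl, and 17.8% of the promoter windows held it. No window of these genes held TGACGTCA, present in 1.55% of promoters, or TGTTTAC, present in 3.17%. These are matches of letters, and binding was not measured.

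Several facts of the libraries touch all the results. Depth moved with FH, at 21632289 to 23506015 counts per ob/ob FH library, against 12573267 to 14496559 per ob/ob vector library. Fasted FH libraries had 19107050 to 25873379 counts, against 12231828 to 14884323 in fasted vector libraries. Malat1, an RNA retained in the nucleus, had 10.5 to 30.1 CPM on library totals in ob/ob FH and 472 to 612 in ob/ob vector libraries, and 36.2 to 58.4 in fasted FH and 511 to 687 in fasted vector libraries. Genes with a count numbered 19052 to 19922 in ob/ob FH and 21360 to 21629 in ob/ob vector libraries, and 18414 to 19546 in fasted FH and 20312 to 20953 in fasted vector libraries. Values are CPM (counts scaled to a common library size) on totals scaled by the trimmed mean of M values (TMM). Without that scaling, on library totals, the median log2 fold change of all genes moved by -0.62 for FH in ob/ob livers and by -0.67 in fasted livers, and for ob/ob against fasted livers by 0.25 with FH and by 0.21 with the vector. Fold changes are therefore given relative to the bulk of genes, with the value on library totals beside those that change call or direction. Fh1, the mouse gene of the delivered enzyme, averaged 679 ± 106 CPM in ob/ob FH and 122 ± 17.9 CPM in ob/ob vector livers, and 813 ± 104 CPM in fasted FH and 319 ± 85.5 CPM in fasted vector livers (SD, n = 3 each). Xist, the RNA of the inactive X, had 2242 to 4992 counts in the ob/ob FH libraries and 1 to 24 in the other 9. Counts of 4 Y-linked genes summed to 0 in the ob/ob FH libraries and to 2304 to 5181 in the others, or 113 to 130 CPM on library totals in fasted FH and 300 to 352 in fasted vector libraries. Sex and FH therefore cannot be told apart in the ob/ob mice, and every value below that uses the ob/ob FH group carries this. Hepatocyte markers summed to 118032 to 132990 CPM on library totals in ob/ob FH, 61880 to 74674 in ob/ob vector, 108205 to 120405 in fasted FH and 59245 to 78293 in fasted vector libraries. On TMM-scaled totals 6 of the 7 were called higher with FH in each model. Of all genes 27.4% were called higher and 27.6% lower in fasted livers, and 25.8% and 27.9% in ob/ob livers. Library totals gave 3 hepatocyte markers higher and 1 lower in fasted livers, and 3 higher in ob/ob livers. The shares of all genes on that scale were 7.14% higher and 55.8% lower in fasted livers, and 6.82% and 53.3% in ob/ob livers. On TMM-scaled totals the 6 endothelial markers were all lower with FH in fasted livers, as were 5 of the 6 Kupffer cell markers. In ob/ob livers 3 endothelial markers were higher with FH and 1 lower on that scaling, and 5 Kupffer markers were higher. The ob/ob counts on library totals were 1 higher and 3 lower for endothelium, and 2 higher and 1 lower for Kupffer cells. The 6 Kupffer markers summed to 324 to 484 CPM in ob/ob FH, 299 to 482 in ob/ob vector, 99.3 to 114 in fasted FH and 368 to 431 in fasted vector libraries. The 6 endothelial markers summed to 154 to 215 CPM in ob/ob FH, 220 to 270 in ob/ob vector, 69.5 to 80.3 in fasted FH and 263 to 351 in fasted vector libraries, and no marker of these 3 lists was at 0 in any library. The part of these shifts in the results was not tested, and in bulk RNA fewer cells of a type and less RNA per cell cannot be told apart. Depth, Malat1 and the number of genes with a count set every FH library apart from every vector library of its model. FH therefore cannot be told apart from these differences between libraries in either model. Whether each library stands for a mouse of its own is not stated in the labels, and p-values may then reflect technical spread alone.

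Together the 9 genes held 0.219% to 0.248% of the counts in ob/ob FH, 0.210% to 0.238% in ob/ob vector, 0.166% to 0.178% in fasted FH and 0.133% to 0.144% in fasted vector libraries. These shares on library totals overlapped between ob/ob FH and ob/ob vector livers and did not overlap between fasted FH and fasted vector livers. Levels between genes were compared per length, as CPM per kilobase of annotated exon. Ugp2 stood at the top in ob/ob FH livers (203 CPM per kilobase), ob/ob vector livers (171) and fasted vector livers (142). In fasted FH livers Gys2 averaged 262 CPM per kilobase and Ugp2 213, with Gys2 between 220 and 310 and Ugp2 between 203 and 231. Ppp1r3g was the least abundant gene in every group, with 1.68 CPM per kilobase in ob/ob FH, 1.48 in ob/ob vector, 2.20 in fasted FH and 0.407 in fasted vector livers. Phka2, a subunit of a large holoenzyme, averaged 5.13 CPM per kilobase in ob/ob FH, 4.76 in ob/ob vector, 5.69 in fasted FH and 3.36 in fasted vector livers. Among the targeting subunits, Ppp1r3b led Ppp1r3c in ob/ob FH livers (35.4 against 15.7 CPM per kilobase), while Ppp1r3c averaged more than Ppp1r3b in fasted vector livers (39.9 and 30.7) and was higher in each of those libraries. In ob/ob vector livers the mean of Ppp1r3c was also higher (37.8 and 25.5), through replicate 2 (77.8 and 30.9). Replicates 1 and 3 had the opposite order, with 17.4 and 18.2 CPM per kilobase for Ppp1r3c against 22.6 and 23.0 for Ppp1r3b.

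**Figure D1:**
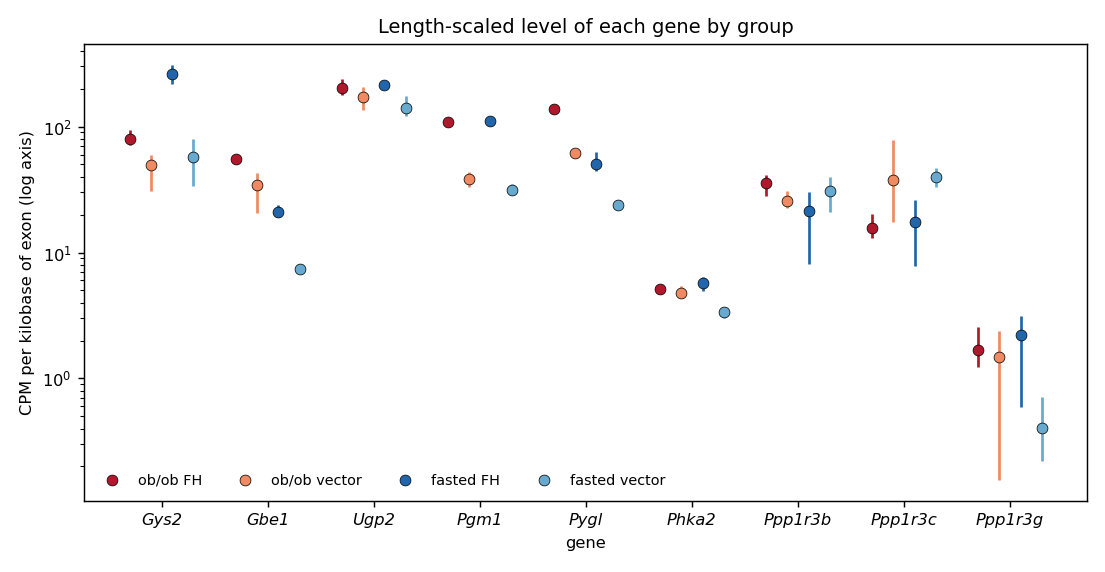
Mean level of each gene in CPM per kilobase of exon (log axis) in the 4 groups, with bars from the lowest to the highest of 3 libraries. Gys2 reaches 262 CPM per kilobase in fasted FH livers, against 57.5 in fasted vector livers, and Ppp1r3g lies at the bottom in every group.

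FH against vector was compared within each model. In fasted livers 7 of the 9 genes were higher with FH by edgeR and the other 2 were not called, where 27.4% of all genes tested were called higher and 27.6% lower (55.0% either way). In ob/ob livers 3 were higher and the other 6 were not called, where 25.8% of all genes were called higher and 27.9% lower (53.7% either way). Pgm1, Gbe1 and Pygl rose in both models, and Gys2, Ugp2, Phka2 and Ppp1r3g were called in fasted livers. The median log2 fold change of the 9 genes was 0.47 in ob/ob and 1.07 in fasted livers, where all genes had -0.01 in ob/ob and -0.04 in fasted livers. On library totals the calls were 2 higher and 2 lower in ob/ob livers (median -0.16) and 4 higher and 2 lower in fasted livers (median 0.40). The background on that scale was 6.82% higher and 53.3% lower in ob/ob livers, and 7.14% higher and 55.8% lower in fasted livers.

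**Figure D2:**
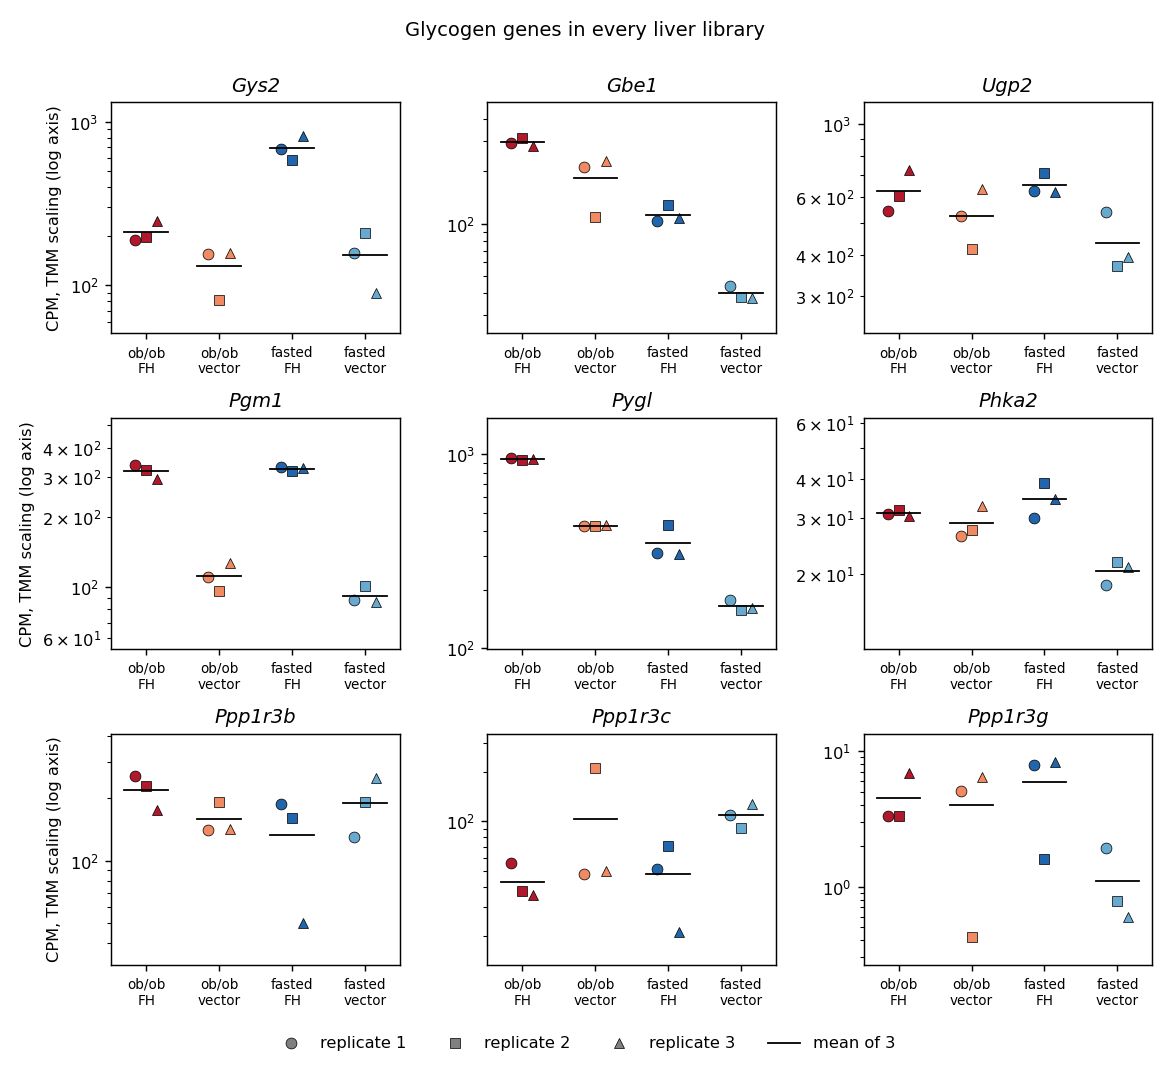
CPM on TMM-scaled totals (log axis, a range of its own in each panel) of the 9 genes in the 12 libraries, with a line at the mean of each group. Pgm1 separates both FH groups from both vector groups, Pygl has its highest values in ob/ob FH livers, and ob/ob vector replicate 2 lies apart for Ppp1r3c and Ppp1r3g.

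Pgm1, the enzyme at the branch point of glucose 6-phosphate and glycogen, had the smallest adjusted p of the 9 genes in both models. It stood at 335, 319 and 293 CPM in ob/ob FH livers, against 111, 96.2 and 127 CPM in ob/ob vector livers. The fasted livers had 329, 316 and 327 CPM with FH, against 87.6, 101 and 86.1 CPM with the vector. Every FH library lay above every vector library of both models, and the FH libraries of the 2 models overlapped. The rise was 2.83-fold in ob/ob livers (log2 fold change 1.50, SE 0.13, edgeR adjusted p = 2.21e-06) and 3.53-fold in fasted livers (log2 1.82, SE 0.13, adjusted p = 1.38e-06). On library totals it was still called, at 0.88 log2 units in ob/ob and 1.15 in fasted livers.

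Ugp2, which makes the UDP-glucose that synthase uses, had a smaller fitted change with FH than Gys2 and Gbe1 on TMM-scaled totals, which did not hold on library totals in ob/ob livers. It had 543, 604 and 726 CPM in ob/ob FH livers, against 525, 417 and 632 CPM in ob/ob vector livers. With FH the fasted livers had 625, 709 and 623 CPM, against 539, 369 and 395 CPM with the vector. The ob/ob groups overlapped and the fasted groups did not. The fitted log2 change was 0.25 in ob/ob livers (SE 0.19, adjusted p = 0.276) and 0.59 in fasted livers (SE 0.19, adjusted p = 0.0174). The fasted call was lost without fasted FH replicate 2 (0.53, adjusted p = 0.0596), fasted vector replicate 2 (0.50, 0.0613) or fasted vector replicate 3 (0.54, 0.0613), and on library totals the values turned to -0.36 in ob/ob and -0.08 in fasted livers.

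Gys2, the liver isoform of glycogen synthase, showed the widest contrast of the 4 enzymes of synthesis between fasted groups. It reached 685, 584 and 823 CPM in fasted FH livers, against 158, 211 and 89.7 CPM in fasted vector livers. In ob/ob livers it had 191, 198 and 249 CPM with FH, against 155, 81.4 and 159 CPM with the vector. The groups did not overlap in either model, and the fasted FH livers lay above all the others. The rise in fasted livers was 4.57-fold (log2 2.19, SE 0.30, adjusted p = 5.58e-05) and stayed called on library totals (1.53). In ob/ob livers the fitted change was 0.69 (SE 0.29), which missed the threshold (adjusted p = 0.0601) and was 0.07 on library totals. It was called by DESeq2 (0.68, adjusted p = 0.0469) and without ob/ob vector replicate 3 (0.86, 0.0408), fasted vector replicate 2 (0.70, 0.0400) or fasted vector replicate 3 (0.70, 0.0281). Without ob/ob vector replicate 2 it was 0.45 (adjusted p = 0.160).

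Gbe1, the branching enzyme, was higher with FH in both models. It had 290, 312 and 281 CPM in ob/ob FH livers, against 211, 109 and 229 CPM in ob/ob vector livers. The fasted values were 103, 128 and 107 CPM with FH, against 43.6, 38.1 and 37.3 CPM with the vector. No FH library overlapped a vector library of the same model. The rise was 1.61-fold in ob/ob livers (log2 0.69, SE 0.21, adjusted p = 0.0149) and 2.84-fold in fasted livers (log2 1.51, SE 0.22, adjusted p = 8.01e-05). The ob/ob value was 0.44 without ob/ob vector replicate 2 (adjusted p = 0.0157), was lost on library totals (0.06, adjusted p = 0.815), and was lost when the 2 ob/ob groups were fitted alone (0.62, adjusted p = 0.0704). The fasted rise was still called on library totals (0.84).

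Pygl, the phosphorylase that opens the store, rose in both models. It had 959, 939 and 940 CPM in ob/ob FH livers, against 425, 427 and 430 CPM in ob/ob vector livers. Fasted FH livers had 309, 429 and 305 CPM, against 177, 158 and 161 CPM with the vector. The ob/ob libraries of each group were close together, and in both models the FH libraries lay above the vector libraries. The rise was 2.21-fold in ob/ob livers (log2 1.15, SE 0.15, adjusted p = 2.94e-05) and 2.10-fold in fasted livers (log2 1.07, SE 0.15, adjusted p = 4.93e-05). Both calls held on library totals, at 0.52 in ob/ob and 0.40 in fasted livers.

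Phka2, the regulatory subunit of phosphorylase kinase and an X-linked gene, had 31.0, 31.9 and 30.4 CPM in ob/ob FH livers, against 26.4, 27.5 and 32.7 CPM in ob/ob vector livers. Its values in fasted livers were 30.1, 38.9 and 34.5 CPM with FH, against 18.5, 21.8 and 20.9 CPM with the vector. The fasted groups were apart and the ob/ob groups overlapped. The fitted change was 0.11 in ob/ob livers (SE 0.13, adjusted p = 0.489) and 0.76 in fasted livers (SE 0.13, adjusted p = 2.52e-04). Scaling decided both values, since on library totals the ob/ob value was -0.51 (adjusted p = 0.00337) and the fasted value 0.08 (adjusted p = 0.585).

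Libraries of a group spread widely for the targeting subunits. Ppp1r3b (GL), the main targeting subunit of rodent liver, had 255, 230 and 175 CPM in ob/ob FH livers, against 140, 192 and 143 CPM in ob/ob vector livers. Fasted FH livers showed 187, 160 and 50.3 CPM, against 131, 192 and 249 CPM with the vector. The groups overlapped in both models. The fitted change was 0.47 in ob/ob livers (SE 0.36, adjusted p = 0.289; -0.16 on library totals) and -0.53 in fasted livers (SE 0.37, adjusted p = 0.236). On library totals the fasted value was -1.20 and was called (adjusted p = 0.0134).

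Ppp1r3c (PTG) targets the phosphatase to glycogen in many tissues. It had 55.3, 37.6 and 35.6 CPM in ob/ob FH livers, against 47.5, 212 and 49.6 CPM in ob/ob vector livers. Its fasted levels were 51.4, 70.7 and 21.3 CPM with FH, against 109, 90.7 and 127 CPM with the vector. The fasted groups did not overlap, and the ob/ob difference rested on ob/ob vector replicate 2. The fitted change missed the threshold in ob/ob livers (-1.27, SE 0.51, adjusted p = 0.0511) and in fasted livers (-1.19, SE 0.51, adjusted p = 0.0641). Without ob/ob vector replicate 2 the ob/ob value was -0.17 (adjusted p = 0.692), while the fasted value was -1.17 and was called (adjusted p = 0.00309). On library totals both were called, at -1.90 in ob/ob (adjusted p = 0.00674) and -1.86 in fasted livers (adjusted p = 0.00745).

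The calls on Ppp1r3c moved with other single libraries as well. The ob/ob change was called without ob/ob vector replicate 1 (-1.59, adjusted p = 0.0190), ob/ob vector replicate 3 (-1.58, 0.0170) or fasted FH replicate 3 (-1.26, 0.0377). The fasted change was called without ob/ob vector replicate 1 (-1.17, adjusted p = 0.0467), ob/ob vector replicate 3 (-1.17, 0.0440) or fasted FH replicate 2 (-1.58, 0.0429), when the 2 fasted groups were fitted alone (-1.23, 0.00380), and with replicate number as a block (-1.39, 0.0289). All these fasted values lay below 0.

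Ppp1r3g, a targeting subunit linked to liver glycogen after feeding in mice, was the rarest of the 9 genes. It had 3.31, 3.33 and 6.95 CPM in ob/ob FH livers, against 5.11, 0.420 and 6.44 CPM in ob/ob vector livers. In fasted livers it had 7.85, 1.61 and 8.36 CPM with FH, against 1.92, 0.778 and 0.598 CPM with the vector. Fasted FH replicate 2 lay inside the range of the fasted vector libraries, whose counts were 27, 13 and 9. The fitted change was 0.19 in ob/ob livers (SE 0.70, adjusted p = 0.837; -0.42 on library totals and -0.33 without ob/ob vector replicate 2). The fasted change was 2.45 and was called (SE 0.80, adjusted p = 0.0194), with 1.79 on library totals (adjusted p = 0.0689). That call was lost without fasted FH replicate 1 (2.22, adjusted p = 0.0559), fasted FH replicate 3 (2.12, 0.0672), fasted vector replicate 2 (2.27, 0.0652) or fasted vector replicate 3 (2.18, 0.0770).

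Clock genes varied between the same libraries, and their part in the values of the targeting subunits was not tested. Dbp, an output gene of the circadian clock, had 35.7, 0.420 and 36.7 CPM in the ob/ob vector libraries, where Ppp1r3g was low and Ppp1r3c high in replicate 2. Arntl, which encodes the clock factor BMAL1, had 4.35, 21.9 and 5.97 CPM in the same libraries. In the fasted FH livers Dbp had 63.2, 45.8 and 48.0 CPM, against 5.82, 2.39 and 4.39 CPM in the fasted vector livers. Arntl had 3.75, 1.74 and 2.04 CPM in fasted FH livers, against 19.9, 18.1 and 20.9 CPM in fasted vector livers. In ob/ob FH livers Dbp had 12.1, 16.3 and 37.0 CPM and Arntl 14.2, 10.4 and 4.93 CPM.

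**Figure D3:**
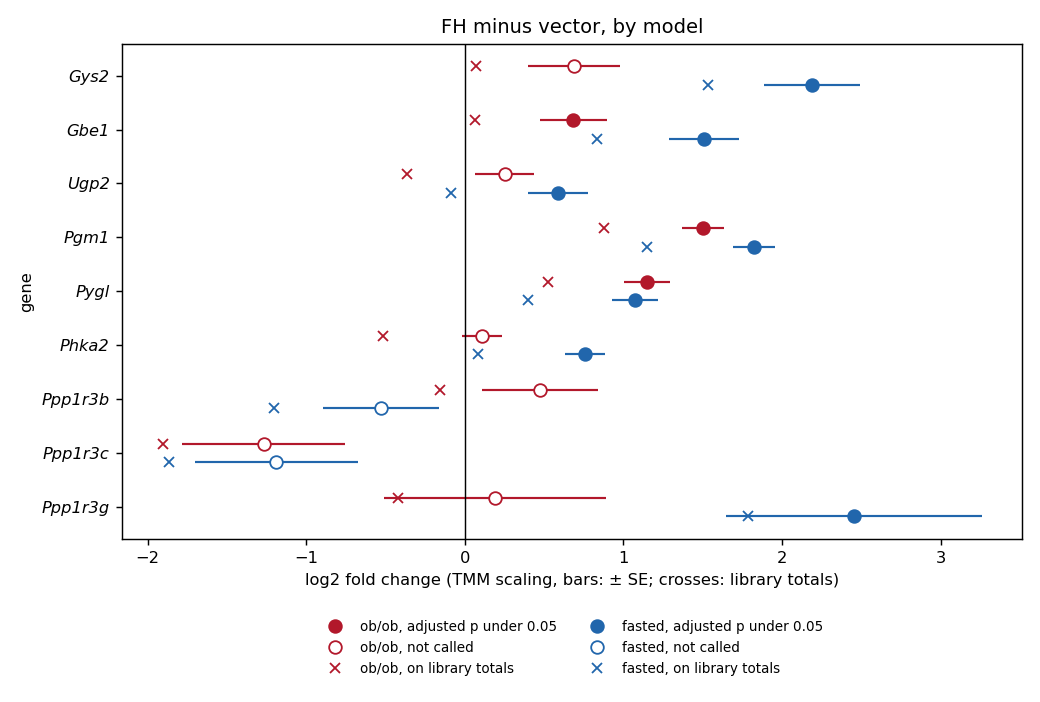
Log2 fold change of FH over vector for each gene in ob/ob livers (red) and fasted livers (blue), with bars of ± SE, filled points where the edgeR adjusted p was under 0.05, and crosses for the value on library totals. Pgm1 and Pygl lie to the right of 0 in both models under both scalings. Ugp2 in both models, and Phka2, Ppp1r3b and Ppp1r3g in ob/ob livers, have crosses on the other side of 0.

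Whether FH acted differently in the 2 models was tested as the ob/ob FH effect minus the fasted FH effect. Of the 9 genes, 2 had a smaller effect in ob/ob livers and the other 7 were not called, where 3.66% of all genes were called smaller and 4.77% larger (8.43% either way). On library totals 1 was called smaller, against 2.37% of all genes smaller and 4.74% larger. The effect on Gys2 was smaller by a fitted difference of -1.50 log2 units (SE 0.41, adjusted p = 0.0398; -1.46 on library totals), and that on Phka2 by -0.65 (SE 0.18, adjusted p = 0.0400). The Phka2 call was lost on library totals (-0.60, adjusted p = 0.0648). Each call was lost in 10 of the 12 fits that left out 1 library, with Gys2 between -1.81 and -1.23 and Phka2 between -0.74 and -0.54. Gys2 kept its call without ob/ob vector replicate 2 (-1.75, adjusted p = 0.00527) or fasted vector replicate 2 (-1.81, 0.0245), and Phka2 without ob/ob vector replicate 2 (-0.69, 0.0330) or fasted FH replicate 1 (-0.74, 0.0348). The largest adjusted p among these fits was 0.101 for Gys2 and 0.126 for Phka2, and with replicate number as a block that of Gys2 was 0.0709 (-1.46).

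The differences of the other 7 genes were not called. They were 0.07 for Pygl (SE 0.20, adjusted p = 0.866), -0.32 for Pgm1 (SE 0.18, 0.309), -0.34 for Ugp2 (SE 0.27, 0.476) and -0.82 for Gbe1 (SE 0.30, 0.108). Those of the targeting subunits had wide errors, with 1.00 for Ppp1r3b (SE 0.52, adjusted p = 0.251), -0.08 for Ppp1r3c (SE 0.72, 0.961) and -2.26 for Ppp1r3g (SE 1.07, 0.207). Without ob/ob vector replicate 2 the differences of Gbe1 (-1.09, adjusted p = 0.00232) and Ppp1r3g (-2.81, 0.0264) were called as well, and that of Ppp1r3c was 1.01 (adjusted p = 0.161).

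The ob/ob and fasted livers were then compared at the same virus. The models differ in mouse line, ob/ob mice without functional leptin or C57BL/6 mice. The labels name a high-fat diet for the ob/ob mice only and a 24 h fast for the C57BL/6 mice only. Line, diet and fasting therefore cannot be told apart, and the comparisons share their libraries with those of FH. The ob/ob FH and fasted FH libraries also differ in Xist and Y-linked counts, so with FH sex cannot be told apart from the model either. With FH, 2 of the 9 genes were higher in ob/ob livers (Gbe1 and Pygl) and 1 was lower (Gys2), where 18.6% of all genes were called higher and 21.6% lower (40.2% either way). With the vector, 3 were higher in ob/ob livers (Gbe1, Pygl and Phka2) and the other 6 were not called, where 9.36% of all genes were called higher and 8.18% lower (17.5% either way). The median log2 fold change of the 9 genes was -0.06 with FH and 0.28 with the vector, where all genes had -0.09 with FH and 0.00 with the vector. On library totals the same counts were 2 higher and 1 lower with FH (26.5% and 9.69% of all genes) and 4 higher with the vector (18.0% of all genes, and 4.21% lower), with Pgm1 added (0.49, adjusted p = 0.0107).

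Gbe1 and Pygl stood higher in ob/ob livers whichever virus was given. Gbe1 averaged 294 ± 15.9 CPM in ob/ob FH and 113 ± 13.6 CPM in fasted FH livers (SD, n = 3 each), a log2 difference of 1.38 (SE 0.22, adjusted p = 3.19e-04). It averaged 183 ± 64.5 CPM in ob/ob vector and 39.7 ± 3.44 CPM in fasted vector livers, a log2 difference of 2.21 (SE 0.22, adjusted p = 4.44e-05). Pygl averaged 946 ± 11 CPM in ob/ob FH and 348 ± 70.7 CPM in fasted FH livers (log2 1.44, SE 0.15, adjusted p = 1.68e-05). With the vector it averaged 427 ± 2.74 CPM in ob/ob and 165 ± 10.2 CPM in fasted livers (log2 1.37, SE 0.15, adjusted p = 6.55e-05). For both genes the order of mean levels was ob/ob FH, ob/ob vector, fasted FH and fasted vector, in which the middle pair overlapped and the other neighbours did not. All 4 differences grew on library totals, to between 1.58 and 2.41 log2 units.

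Gys2 was lower in ob/ob livers in the comparison with FH. It averaged 213 ± 31.6 CPM in ob/ob FH and 697 ± 120 CPM in fasted FH livers, a log2 difference of -1.71 (SE 0.30, adjusted p = 6.57e-04; -1.45 on library totals). With the vector it averaged 132 ± 43.7 CPM in ob/ob and 153 ± 60.6 CPM in fasted livers, with overlapping libraries (-0.21, SE 0.29, adjusted p = 0.675; 0.01 on library totals). The test of the change between these 2 differences is the one given above for the FH effects, which was sensitive to single libraries. Phka2 averaged 31.1 ± 0.741 CPM in ob/ob FH and 34.5 ± 4.36 CPM in fasted FH livers (-0.15, SE 0.13, adjusted p = 0.366; 0.11 on library totals). With the vector it averaged 28.9 ± 3.37 CPM in ob/ob and 20.4 ± 1.73 CPM in fasted livers (0.50, SE 0.13, adjusted p = 0.0165), a call that was lost without ob/ob vector replicate 3 (0.40, 0.0759), without fasted vector replicate 1 (0.44, 0.0541) or with the vector groups fitted alone (0.52, 0.0571).

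Pgm1 and Ugp2 were not called between the models. Pgm1 averaged 316 ± 21.1 CPM in ob/ob FH and 324 ± 6.98 CPM in fasted FH livers (log2 -0.04, SE 0.13, adjusted p = 0.842; 0.22 on library totals), and 111 ± 15.5 CPM in ob/ob vector and 91.7 ± 8.46 CPM in fasted vector livers (0.28, SE 0.13, adjusted p = 0.159). Ugp2 averaged 624 ± 93.1 CPM in ob/ob FH and 652 ± 49.4 CPM in fasted FH livers (-0.06, SE 0.19, adjusted p = 0.816; 0.20 on library totals), and 525 ± 108 CPM in ob/ob vector and 434 ± 91.2 CPM in fasted vector livers (0.27, SE 0.19, adjusted p = 0.355). Their groups overlapped on TMM-scaled totals with either virus.

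The targeting subunits missed the threshold between models. Ppp1r3b averaged 220 ± 40.7 CPM in ob/ob FH and 132 ± 72.5 CPM in fasted FH livers (log2 0.73, SE 0.37, adjusted p = 0.127), and 158 ± 29.1 CPM in ob/ob vector and 191 ± 59.3 CPM in fasted vector livers (-0.27, SE 0.36, adjusted p = 0.673). Ppp1r3c averaged 42.8 ± 10.9 CPM in ob/ob FH and 47.8 ± 24.9 CPM in fasted FH livers (-0.16, SE 0.51, adjusted p = 0.834; 0.08 on library totals), and 103 ± 94.4 CPM in ob/ob vector and 109 ± 18 CPM in fasted vector livers (-0.08, SE 0.50, adjusted p = 0.942; 0.12 on library totals). Ppp1r3g averaged 4.53 ± 2.09 CPM in ob/ob FH and 5.94 ± 3.76 CPM in fasted FH livers (-0.39, SE 0.69, adjusted p = 0.683), and 3.99 ± 3.16 CPM in ob/ob vector and 1.10 ± 0.715 CPM in fasted vector livers (1.87, SE 0.81, adjusted p = 0.132). Without ob/ob vector replicate 2 the vector comparison called Ppp1r3c lower (-1.16, adjusted p = 0.0212) and Ppp1r3g higher (2.41, adjusted p = 0.00758) in ob/ob livers, which made 5 calls among the 9 genes. Calls over all genes also rose in that fit, to 3418 from 2671 in the full fit.

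**Figure D4:**
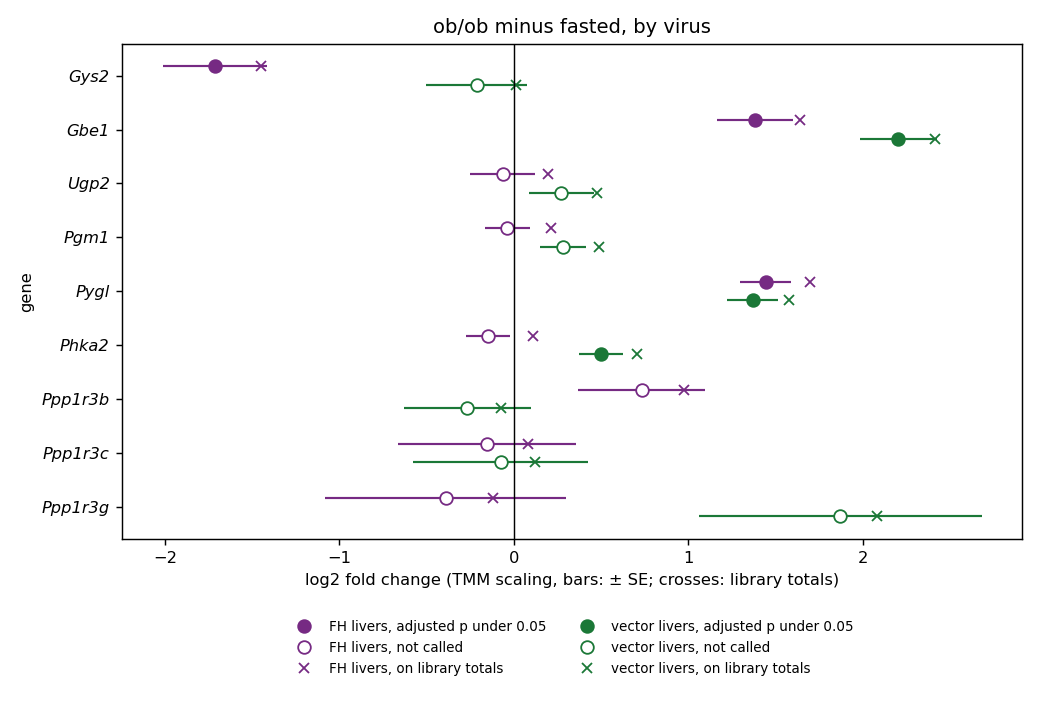
Log2 fold change of ob/ob over fasted livers for each gene with FH (purple) and with the vector (green), with bars of ± SE, filled points where the edgeR adjusted p was under 0.05, and crosses for the value on library totals. Gbe1 and Pygl are called to the right of 0 with either virus, and Gys2 to the left with FH, under both scalings. Gys2 and Ppp1r3c with the vector, and Ugp2, Pgm1, Phka2 and Ppp1r3c with FH, have crosses on the other side of 0.

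A ratio of 2 transcripts within a library does not depend on scaling, and 3 such ratios were compared, each in 4 pairs of groups (12 comparisons in all). With 3 libraries against 3 the two-sided exact permutation test cannot go below p = 0.1, so none could pass the threshold. The ratio of Gys2 to Pygl counts sets synthase against phosphorylase. It was 0.199, 0.211 and 0.265 in ob/ob FH livers, against 0.366, 0.191 and 0.369 in ob/ob vector livers. It was 2.22, 1.36 and 2.7 in fasted FH livers, against 0.891, 1.33 and 0.558 in fasted vector livers. The fasted FH libraries lay above all others and the ob/ob libraries below all fasted ones. The ratio is of counts and not per length, so its change between libraries is read and not its size. The mean log2 ratio differed by -0.40 between ob/ob FH and ob/ob vector livers, which overlapped (exact p = 0.4), and by 1.21 between fasted FH and fasted vector livers, which did not (exact p = 0.1). Between ob/ob and fasted livers the difference was -3.17 with FH and -1.56 with the vector, without overlap in either case (exact p = 0.1 each). Adjusted over the 12 comparisons the smallest p was 0.2.

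The ratio of Ppp1r3c to Ppp1r3b counts was 0.217, 0.163 and 0.203 in ob/ob FH livers, against 0.339, 1.10 and 0.347 in ob/ob vector livers. It was 0.275, 0.442 and 0.423 in fasted FH livers, against 0.832, 0.473 and 0.509 in fasted vector livers. In both models the FH libraries lay below the vector libraries, by a mean log2 difference of -1.39 in ob/ob livers and -0.65 in fasted livers (exact p = 0.1 each). The ob/ob difference was -0.83 without ob/ob vector replicate 2. The ob/ob FH livers were also below the fasted FH livers (-0.94, exact p = 0.1), whereas ob/ob vector and fasted vector livers overlapped (-0.21, exact p = 0.6).

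The ratio of Ppp1r3g to Ppp1r3b counts, of a rare subunit to an abundant subunit, overlapped in all 4 comparisons. Its mean log2 value was -5.67 ± 0.88 in ob/ob FH and -5.99 ± 2.39 in ob/ob vector livers, and -4.59 ± 2.01 in fasted FH and -7.53 ± 1.32 in fasted vector livers (SD, n = 3 each). The differences of FH over vector were 0.33 in ob/ob livers (exact p = 0.9; -1.05 without ob/ob vector replicate 2) and 2.94 in fasted livers (exact p = 0.2).

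**Figure D5:**
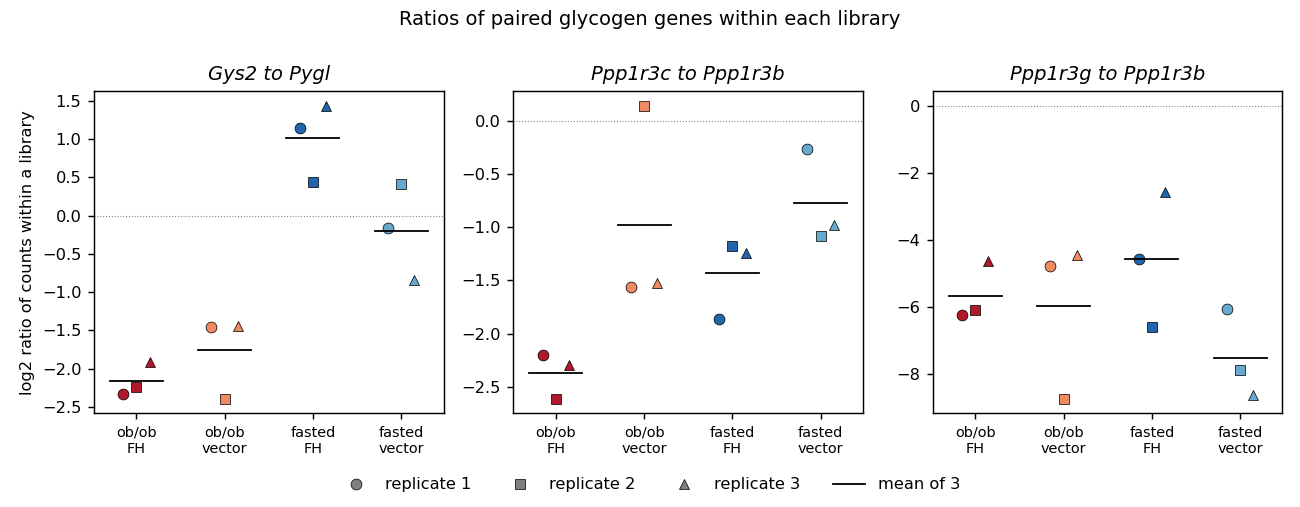
Log2 ratio of counts within each library for Gys2 to Pygl, Ppp1r3c to Ppp1r3b and Ppp1r3g to Ppp1r3b, with a line at the mean of each group and a dotted line where both counts are equal. For Gys2 to Pygl the 3 fasted FH libraries lie above all others and the ob/ob libraries below the fasted ones, and the FH libraries lie below the vector libraries of the same model for Ppp1r3c to Ppp1r3b.

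Other genes of glycogen handling were read from a list of 24 in the table, of which 22 were tested. With FH 9 were higher and 3 lower in ob/ob livers (median log2 0.54), and 9 were higher and 2 lower in fasted livers (median 0.25). Of all genes 25.8% were higher and 27.9% lower in ob/ob livers, and 27.4% and 27.6% in fasted livers. On library totals the counts of the list turned to 2 higher and 8 lower in ob/ob livers and 2 higher and 9 lower in fasted livers, where 6.82% of all genes were higher and 53.3% lower in ob/ob livers, and 7.14% and 55.8% in fasted livers. Gaa, the lysosomal acid glucosidase that degrades glycogen in lysosomes, rose under both scalings in ob/ob livers (log2 1.43, SE 0.15, adjusted p = 8.18e-06; 0.81 on library totals) and in fasted livers (1.48, SE 0.15, adjusted p = 6.39e-06; 0.81 on library totals). Gsk3a, a kinase that inhibits synthase, rose on TMM-scaled totals in ob/ob livers (0.69, adjusted p = 1.40e-04; 0.06 on library totals) and in fasted livers (1.07, adjusted p = 5.94e-06; 0.39 on library totals). The targeting subunit Ppp1r3e rose in fasted livers (1.09, adjusted p = 0.00315), a call that was lost on library totals. Ppp1cb, a catalytic subunit of protein phosphatase 1, fell in ob/ob livers (-0.76, adjusted p = 1.06e-04; -1.39 on library totals), while another, Ppp1ca, rose there (0.83, adjusted p = 3.07e-04; 0.20 on library totals).

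Between ob/ob and fasted livers 4 of the 22 were higher and 5 lower with FH (median -0.02), and 3 were higher and 4 lower with the vector (median 0.10). The shares of all genes were 18.6% higher and 21.6% lower with FH, and 9.36% and 8.18% with the vector. On library totals these were 7 higher and 2 lower with FH and 4 higher and 2 lower with the vector. The shares of all genes were then 26.5% higher and 9.69% lower with FH, and 18.0% and 4.21% with the vector. Pygb, the brain isoform of phosphorylase, was higher in ob/ob livers with FH (log2 2.15, adjusted p = 8.70e-05) and with the vector (1.27, adjusted p = 0.00776). Phkg2, the catalytic subunit of phosphorylase kinase in liver, was lower with FH (-0.79, adjusted p = 0.00120) and with the vector (-0.75, adjusted p = 0.00388). Ppp1cc, the gamma catalytic subunit of the phosphatase, was lower as well (-0.76, adjusted p = 3.17e-04 with FH and -0.62, adjusted p = 0.00341 with the vector). These 6 calls held on library totals.

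The steps that lead glucose to and from the store were read from 7 genes. In fasted livers 4 were higher and 3 lower with FH (median log2 1.09), and in ob/ob livers 4 were higher and 1 lower (median 0.95). Of all genes 55.0% were called either way in fasted and 53.7% in ob/ob livers. Library totals gave 3 higher and 3 lower in fasted livers, and 3 higher and 2 lower in ob/ob livers. The shares of all genes were then 7.14% higher and 55.8% lower in fasted livers, and 6.82% and 53.3% in ob/ob livers. Slc2a2, the hepatocyte glucose transporter GLUT2, rose in ob/ob livers (log2 1.26, SE 0.18, adjusted p = 8.35e-05) and in fasted livers (2.25, SE 0.19, adjusted p = 2.29e-06), and the rise was smaller in ob/ob livers (difference -0.99, adjusted p = 0.0325). The call of that difference was lost in 10 of the 12 fits that left out 1 library (-1.18 to -0.87, adjusted p up to 0.0890). Slc37a4, which carries glucose 6-phosphate into the endoplasmic reticulum, rose by 1.48 in ob/ob livers (adjusted p = 3.02e-05) and 1.43 in fasted livers (adjusted p = 3.77e-05), and Gpi1, the isomerase next to Pgm1, by 1.73 in ob/ob (1.32e-05) and 1.41 in fasted livers (5.96e-05). Gckr fell by 0.94 in ob/ob livers (adjusted p = 2.30e-04) and by 1.50 in fasted livers (adjusted p = 7.63e-06). These 8 calls held on library totals.

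Of 11 tested genes that signal to glycogen, 4 were higher and 1 lower with FH in ob/ob livers, and 5 were higher in fasted livers, where 53.7% of all genes were called either way in ob/ob and 55.0% in fasted livers. On library totals the counts were 1 higher and 4 lower in ob/ob livers and 1 higher and 2 lower in fasted livers. Of all genes 6.82% were then higher and 53.3% lower in ob/ob livers, and 7.14% and 55.8% in fasted livers. Prkaca, the catalytic subunit of protein kinase A, rose in ob/ob livers (log2 1.22, adjusted p = 1.28e-05; 0.59 and called on library totals) and in fasted livers (0.92, adjusted p = 1.04e-04; 0.25 and not called). Akt2, the insulin-activated kinase of liver, rose in ob/ob livers (0.77, adjusted p = 4.32e-05; 0.14 and not called) and in fasted livers (0.95, adjusted p = 9.04e-06; 0.28 and called). Between ob/ob and fasted livers 2 of the 11 were higher and 3 lower with FH (18.6% and 21.6% of all genes). With the vector 3 were higher and 2 lower (9.36% and 8.18% of all genes). Library totals gave 3 higher and 2 lower with FH (26.5% and 9.69%), and 4 higher and 0 lower with the vector (18.0% and 4.21%). Adra1b was called higher with either virus, and Adcy6 with the vector, in all 12 fits that left out 1 library. Insr, the insulin receptor, was lower in ob/ob than in fasted livers with FH (-0.82, adjusted p = 2.78e-04) and with the vector (-0.40, adjusted p = 0.0409; not called on library totals). Irs2, the insulin receptor substrate, was lower too (-0.999, adjusted p = 0.00879 with FH and -0.87, adjusted p = 0.0381 with the vector, the second not called on library totals). With the vector the call of Insr was lost in 9 of the 12 fits that left out 1 library (-0.49 to -0.33, adjusted p up to 0.134) and that of Irs2 in 7 (-1.33 to -0.65, adjusted p up to 0.139), and neither was called with the vector groups fitted alone.

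Skeletal muscle holds other isoforms of the glycogen enzymes, and its marker genes summed to between 0.806 and 2.04 CPM on library totals in every library, with 1 of the 5 abundant enough to be tested. The genes whose profile over the 12 libraries lay closest to each glycogen gene were found among 11709 genes by the mean absolute difference of centred log2(CPM + 1). Pgm1 lay closest to Got2, the mitochondrial aspartate aminotransferase (0.06 log2 units), and Vcp (0.08), and Ugp2 to Stbd1, which tethers glycogen to membranes (0.10), and Atp6ap2 (0.11). Phka2 lay closest to Itgav (0.09), and Pygl to Cyb5r3 (0.14) and Enpep (0.17). Gys2 lay closest to Hsd17b11 (0.23) and to Cpt1a, the enzyme that admits long-chain fatty acids to mitochondria (0.24), while Gbe1 lay closest to Eepd1 (0.19) and Pparg (0.21). The targeting subunits had no neighbour as near, with 0.27 for Ppp1r3b and Zscan20, 0.30 for Ppp1r3c and Adh6-ps1, and 0.29 for Ppp1r3g and Bhlhb9. The distance is not scaled to the range of a gene, so distances of different members are not on a common footing. That range, of log2(CPM + 1), was 2.32 log2 units for Ppp1r3b, 3.26 for Ppp1r3c and 2.72 for Ppp1r3g. It was 0.97 for Ugp2, 1.03 for Phka2, 1.95 for Pgm1, 2.59 for Pygl, 3.03 for Gbe1 and 3.32 for Gys2. The added 1 narrows the range of a rare gene such as Ppp1r3g, which ran from 0.420 to 8.36 CPM. The ranges therefore do not rank how much these genes varied. Libraries of a group share treatment and depth, so these distances describe the 12 libraries and carry no test.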

How the data were processed

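The 12 libraries of mouse liver RNA fall into 4 groups of 3, taken from the labels. The authors' deposited table holds raw counts per gene, made after alignment to GRCm39 with STAR 2.7.11a, per the submitters' processing notes. Libraries were made from total RNA with a stranded mRNA kit, per the labels' protocols. The sources used here do not state the tool, annotation or strand setting of the counting, so reads of overlapping antisense genes could not be judged. Gene rows were matched by symbol, with 0 rows lacking a name and 0 value columns unused. The table's Pgm1 follows the current mouse naming, in which it was once called Pgm2.

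The counts were modelled with edgeR 4.0.16 in R 4.3.3 (quasi-likelihood F test, TMM scaling, filterByExpr with a minimum count of 10 and 15 in total, all 12 libraries in 1 model with 8 residual degrees of freedom). Adjusted p is Benjamini-Hochberg over all 15228 genes tested, called under 0.05. Shares and levels carry counting error, which their number of counts limits, beside the spread between libraries. Exon lengths came from GENCODE M21 (GRCm38), joined by symbol, so levels per kilobase rest on another annotation than the counting. Within-library ratios had 0.5 added to each count and were compared by two-sided exact permutation tests. Likeness used log2(CPM + 1) of genes averaging at least 1 CPM, with 2 genes found per member and the nearest named. Alternatives were library totals, DESeq2 size factors, DESeq2 1.42.0, no filter, the compared groups alone, a replicate block and leaving out each library. The fits were checked on simulated data in which few genes changed and as many were raised as lowered. Far more genes were called for FH in these libraries, so that check could not test the choice of scaling.

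The 9 genes and the further lists were chosen with earlier results of these data known. Named from the further lists were called genes with the smallest adjusted p, up to 4 per comparison, of which some are described. Replicate numbers did not pair libraries, since libraries with the same number did not deviate together (correlations of -0.211 to 0.122 across genes). No 2 libraries of a group were alike within sampling noise (chi-square per gene of 22.2 to 120). Some genes counted in the wider lists are not reported here by name.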

Additional observations from a re-analysis of the deposited data

Results flagged for a closer look

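The effect of FH differed between ob/ob and fasted livers by the test of the difference itself for 2 of the 9 glycogen genes and for the delivered gene, where 8.43% of all genes were called. For Gys2 the ob/ob effect minus the fasted effect was -1.50 log2 units (edgeR adjusted p = 0.0398), for Phka2 it was -0.65 (adjusted p = 0.0400), and for Fh1 it was 1.13 (adjusted p = 0.0267). The calls of Gys2 and Phka2 were each lost in 10 of the 12 fits that left out 1 library, and that of Phka2 also on library totals (-0.60, adjusted p = 0.0648). Fh1 was not followed in those fits. Between ob/ob and fasted livers Fh1 was not called with FH (log2 -0.26) and was called lower with the vector (-1.39). The ob/ob FH libraries also differ from all others in Xist and Y-linked counts, so sex and FH cannot be told apart in these differences, and Phka2 is X-linked.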

How the results depend on the processing

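Of the 9 glycogen genes, those called in each comparison numbered 7 for FH in fasted livers (5 to 8 when 1 library was left out), 3 for FH in ob/ob livers (3 to 5), 3 for ob/ob against fasted livers with the vector (2 to 5), 3 with FH (3 to 3) and 2 for the difference of FH effects (0 to 4). For that difference the count was 1 on library totals (7.11% of all genes), 1 with DESeq2 size factors, 1 with the replicate block and 4 without the filter on low counts. For FH in ob/ob livers the count was 6 without the filter. The shares of all genes with DESeq2 size factors, with the block and without the filter are not reported here. Those counts are therefore not read against a background. Over all genes, leaving out 1 library gave 7214 to 9235 calls for FH in fasted livers, 7007 to 8613 in ob/ob livers, 1669 to 3418 for ob/ob against fasted livers with the vector, 4540 to 6795 with FH and 582 to 1650 for the difference, and 1244 were called with the vector when its groups were fitted alone, against 2671. The replicate block is a fit in which the numbers do not mark a known pairing.

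On library totals the log2 changes that turned direction were -0.084 for Ugp2 (FH, fasted), -0.36 for Ugp2, -0.51 for Phka2, -0.16 for Ppp1r3b and -0.42 for Ppp1r3g (FH, ob/ob), 0.012 for Gys2 and 0.12 for Ppp1r3c (ob/ob against fasted, vector), and 0.20 for Ugp2, 0.11 for Phka2, 0.084 for Ppp1r3c and 0.22 for Pgm1 (ob/ob against fasted, FH). For ob/ob against fasted livers with FH, Pgm1 was 4.4e-05 without the filter and 0.032 with the groups alone, and Ugp2 was 0.0083 with the groups alone. The replicate block gave 0.37 for the difference of Ppp1r3c effects. Leaving out 1 library turned the direction, all of values not called in the full fit, within these ranges: Ugp2 -0.14 to 0.076, Pgm1 -0.055 to 0.055 and Ppp1r3c -0.51 to 0.24 (ob/ob against fasted, FH), Ppp1r3c -1.16 to 0.27 and Gys2 -0.48 to 0.092 (the same, vector), Ppp1r3g -0.33 to 0.75 (FH, ob/ob), and Ppp1r3c -0.43 to 1.01 and Pygl -0.010 to 0.25 (difference). The log2 ratio of Ppp1r3c to Ppp1r3b between vector groups ran from -0.77 to 0.083, and that of Ppp1r3g to Ppp1r3b for FH in ob/ob livers from -1.05 to 1.09. Scaling accounts for the changes on library totals by construction; the cause of the others was not tested. Calls that no left-out library removed were Pgm1, Gbe1 and Pygl for FH in both models, Gys2 and Phka2 for FH in fasted livers, Gbe1 and Pygl between models with either virus, and Gys2 between models with FH. Low counts limit Ppp1r3g, whose lowest library, ob/ob vector replicate 2, held 8 counts.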
